A study of Saccharomyces cerevisiae with 10 samples.

Results

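Budding yeast (Saccharomyces cerevisiae) lacking SUA5 was compared between an early and a late point of propagation on rich plates. The comparison uses the 3 arrays titled as the 12th restreaking and the 4 arrays titled as the first, 7 of the 10 arrays of the series, and 5449 yeast genes that each have an annotated probe set. All 7 deletion cultures are labelled as spores of BY4743, a diploid laboratory strain, with mating type a, and per the design text they came from dissection of a diploid carrying 1 deleted and 1 intact copy of SUA5. The 12th restreaking is labelled as 300 generations after sporulation and the first as 35, and the design text puts a restreaking at 25 generations. The other 3 arrays are of wild-type BY4742, a haploid of mating type alpha with intact SUA5, whose levels are given for orientation only, since that strain differs from the deletion clones in mating type as well. Each array was hybridised with RNA of 1 culture harvested in mid-log growth in liquid rich medium (YPD). The design text calls the clones of a group independent, and the labels do not tie a clone of the 12th restreaking to one of the first.

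Sua5 carries out an early step in making threonylcarbamoyladenosine (t6A), a modified base next to the anticodon of tRNAs that read codons starting with A. The base helps these tRNAs pair correctly during translation, and the KEOPS complex completes its synthesis in the cytosol. Sua5 is also known in yeast for a role in maintaining telomeres, the ends of chromosomes. Cells without it grow slowly.

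SUA5 (YGL169W) lay under the array's background limit on all 7 deletion arrays, with intensities of 5.22, 4.93 and 2.18 at the 12th restreaking and 0.342, 5.1, 3.17 and 1.2 at the first, while wild type read 506, 522 and 532. The background limit was 10.8 to 17.5, and on every array 97.7% to 99.1% of the tested genes exceeded it. The label of mating type a held at both points. HMRA1, which marks a cells and has an identical copy at their mating type locus, read 532, 587 and 616 at the 12th restreaking and 570, 559, 551 and 513 at the first, and HMLALPHA1, which marks alpha cells, lay under the limit on all 7. None of the 10 measured a-specific genes passed the test between the restreakings, against 15.9% of all genes. That test cannot tell which mating type either group has. Against clones 1 and 2 of the first alone 1 was called higher, and against clones 3 and 4 alone 1 lower. Of 6 alpha-specific genes 1, STE3, was called lower (16.7%, against 9.07% of all genes), and none after quantile normalization.

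The 4 clones of the first restreaking were not alike, and this touches every result below. Clones 1 and 2 resembled each other, as did clones 3 and 4: the SD of the log2 difference over all tested genes was 0.136 and 0.121 within these pairs and 0.217 to 0.236 between them. Among the 3 clones of the 12th restreaking it was 0.111 to 0.134. LYS2, which is needed to make lysine, read 53.7, 29.3 and 10.8 at the 12th restreaking, against 15.6, 9.34, 2953 and 2890 in clones 1 to 4 of the first, and 11.1, 17.4 and 10.9 in wild type. MET17, needed to make methionine and cysteine from sulfide, read 96.9, 30.6 and 8.09 at the 12th restreaking, against 10, 15.3, 4898 and 4662 at the first, and 4192, 4176 and 4381 in wild type. At these markers the clones of the 12th restreaking therefore resembled clones 1 and 2, and clones 3 and 4 stood apart. Neither gene passed the test between the restreakings over all 4 clones (adjusted p = 0.214 and 0.237).

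Over all tested genes the change between the restreakings was broad and small. By limma, 866 of 5449 genes (15.9%) passed an adjusted p of 0.05, 372 of them higher at the 12th restreaking (6.83%) and 494 lower (9.07%). The genes called higher had a median change of 1.16-fold and those called lower one of 1.21-fold. A change of at least 2-fold was reached by 7 genes (0.128%), of which ARO9 was higher and GDH3, CIT3, PRM2, LYS20, YAT1 and POX1 were lower. At 1.5-fold, 5 genes were higher and 34 lower. The arrays of the groups did not overlap for 1574 genes (28.9%). Genes with low levels were more often lower than higher: in the dimmest of 4 equal groups of genes 2.71% were called higher and 9.98% lower, and in the brightest 10.2% and 10.3%.

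Tested against clones 1 and 2 alone 773 genes (14.2%) passed, and against clones 3 and 4 alone 611 (11.2%). Both tests use the same 12th restreaking arrays. A gene passed against each pair in the same direction in 292 cases (5.36%), 92 higher and 200 lower, and 199 genes were called in the comparison with all 4 clones and in each of the 20 alternative analyses. The number called was 544, 375 and 267 without clones 1, 2 and 3 of the 12th restreaking, and 748, 602, 619 and 730 without clones 1 to 4 of the first. With each pair of first restreaking clones averaged to 1 sample, 338 genes passed. Leaving out any array of the 12th restreaking lowered the count by over 1.5 times.

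**Figure D1:**
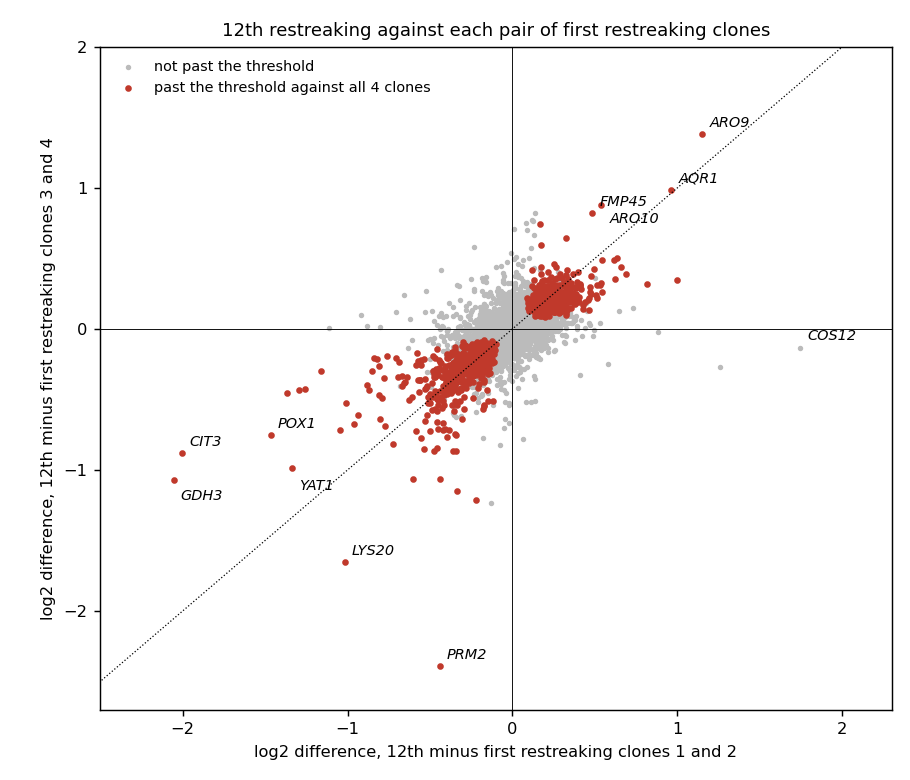
Change of each tested gene at the 12th restreaking against first restreaking clones 1 and 2 (horizontal axis, log2) and against clones 3 and 4 (vertical axis, log2). Red points are the 866 genes called against all 4 clones, grey points the others, and the dotted line marks equal change; LYS2 and MET17 lie outside the axes at -6.06 and -6.58 against clones 3 and 4. GDH3, CIT3 and POX1 lie further below 0 against clones 1 and 2, LYS20 and PRM2 further below 0 against clones 3 and 4, and COS12 is above 0 only on the horizontal axis.

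Genes that handle acetyl units, propionate and fatty acids were among the largest falls. Yeast moves acetyl groups between peroxisome, cytosol and mitochondria bound to carnitine, oxidises fatty acids in peroxisomes, and uses a separate citrate synthase and a dehydratase to dispose of propionate in mitochondria. Of 10 genes of the carnitine shuttle and propionate use 6 fell (60.0%, against 9.07% of all genes) and none rose, with a median log2 change of -0.62, against 0.0036 for all genes. The median was -0.81 against clones 1 and 2 and -0.33 against clones 3 and 4. The array cannot tell fewer transcripts per cell from a smaller share of cells that make them.

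YAT1 (YAR035W), the carnitine acetyltransferase on the outer mitochondrial membrane, read 385, 365 and 360 at the 12th restreaking, against 986, 932, 748 and 752 at the first, and 128, 163 and 139 in wild type. It fell 2.24-fold (log2 change -1.16 ± 0.10, SE, adjusted p = 0.000106), with no overlap between the groups. The cytosolic enzyme YAT2 read 473, 534 and 506, against 1092, 1022, 796 and 883, with 171, 170 and 182 in wild type, and fell 1.84-fold (adjusted p = 0.000122). CRC1, the carrier that takes acetylcarnitine across the inner mitochondrial membrane, read 304, 285 and 278, against 503, 529, 449 and 468, and fell 1.65-fold (adjusted p = 0.00144). All 3 of these passed against each pair of clones.

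CIT3 (YPR001W), the mitochondrial citrate and methylcitrate synthase, read 90.1, 107 and 102 at the 12th restreaking, against 454, 442, 187 and 207 at the first, and 32.2, 34.3 and 50.9 in wild type. The fall was 2.72-fold over the 4 clones (log2 change -1.44 ± 0.26, SE, adjusted p = 0.00413), with log2 changes of -2.00 against clones 1 and 2 and -0.88 against clones 3 and 4. PDH1, which acts on methylcitrate in the same pathway, read 284, 307 and 312, against 757, 848, 374 and 465, and fell 1.88-fold (adjusted p = 0.0130). The log2 changes of PDH1 were -1.37 against clones 1 and 2 and -0.45 against clones 3 and 4, and for both genes clones 3 and 4 lay between the 12th restreaking and clones 1 and 2. CAT2, the carnitine acetyltransferase of peroxisomes and mitochondria, read 838, 1083 and 885, against 1583, 1736, 1021 and 1141, so its groups overlapped. Its adjusted p of 0.0346 was 0.116 or 0.119 without clone 1 or 3 of the 12th restreaking and 0.0761 or 0.0773 without clone 1 or 2 of the first. Its log2 changes were -0.82 against clones 1 and 2 and -0.21 against clones 3 and 4.

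**Figure D2:**
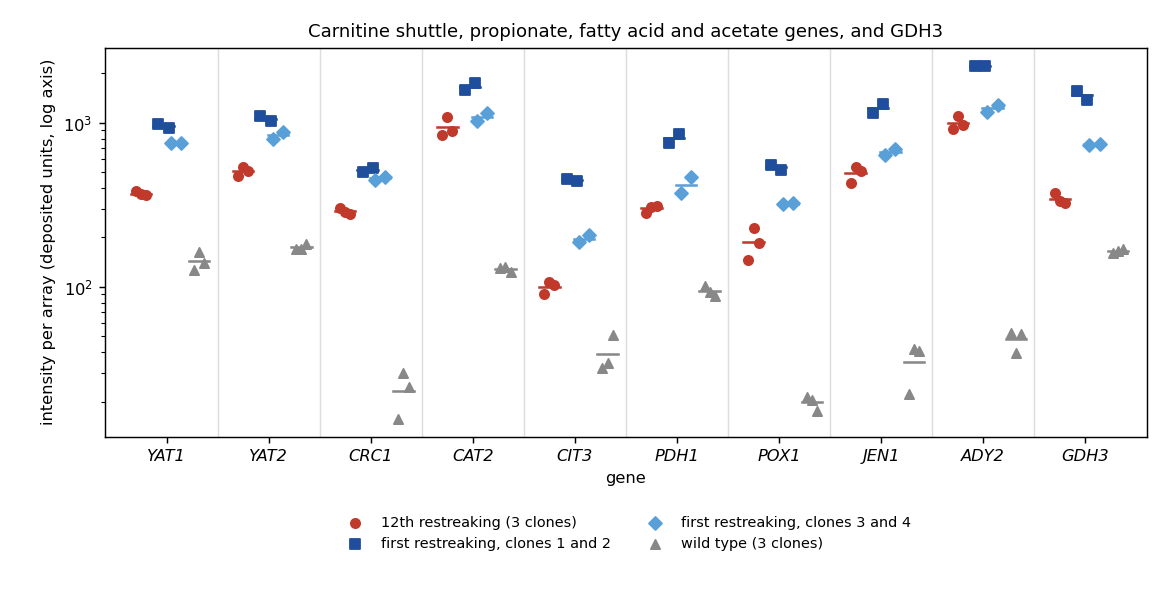
Intensity per array (log axis) of 10 genes: GDH3 and genes of the carnitine shuttle, propionate use, fatty acid oxidation and acetate or lactate uptake. Points are single arrays of the 12th restreaking (red circles), first restreaking clones 1 and 2 (dark blue squares) and clones 3 and 4 (light blue diamonds), and wild type (grey triangles), and short lines are means of each set. The 12th restreaking arrays lie below all 4 first restreaking arrays for each gene but CAT2, and clones 3 and 4 lie below clones 1 and 2 for each gene.

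POX1 (YGL205W), the acyl-CoA oxidase that starts peroxisomal fatty acid oxidation, read 146, 228 and 186 at the 12th restreaking, against 554, 518, 319 and 323 at the first, and 21.2, 20.5 and 17.6 in wild type. It fell 2.16-fold (adjusted p = 0.00289), with log2 changes of -1.47 against clones 1 and 2 and -0.76 against clones 3 and 4. SPS19 and DCI1, auxiliary enzymes for unsaturated fatty acids, fell 1.4-fold and 1.38-fold (adjusted p = 0.00626 and 0.00410). Of 30 genes of peroxisomal fatty acid oxidation 7 fell (23.3%) and none rose, with a median log2 change of -0.13. Against clones 1 and 2 alone 15 fell and against clones 3 and 4 alone 5, and 3 fell without clone 3 of the 12th restreaking. FOX2, the multifunctional enzyme of the middle steps, read 1006, 1150 and 1088, against 1566, 1469, 1076 and 1243, and did not pass (adjusted p = 0.0705).

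In gluconeogenesis, the glyoxylate cycle and the uptake of acetate and lactate, 14 of 33 genes fell (42.4%) and 3 rose (9.09%, against 6.83% of all genes), with a median log2 change of -0.18. CAT2, CIT3, CRC1, YAT1 and YAT2 are counted here too. The number that fell was 6, 8 and 4 without clones 1, 2 and 3 of the 12th restreaking, 7 against clones 3 and 4 alone and 7 with each pair of first restreaking clones averaged. JEN1, the lactate permease, read 427, 535 and 511 at the 12th restreaking, against 1142, 1304, 634 and 695 at the first, and 22.2, 41.8 and 40.7 in wild type. Its fall was 1.82-fold (adjusted p = 0.0209), which became 0.0739, 0.0520 and 0.0665 without clones 1, 2 and 3 of the 12th restreaking. ADY2, the acetate permease, read 911, 1093 and 971, against 2231, 2223, 1167 and 1281, a fall of 1.66-fold (adjusted p = 0.0255). That call was lost without any array of the 12th restreaking (adjusted p = 0.0805, 0.0542 and 0.0853) or without clone 1 or 2 of the first (adjusted p = 0.0527 and 0.0609). MLS1, malate synthase of the glyoxylate cycle, read 18.9, 21.7 and 17.2, against 62.2, 48.4, 28.8 and 41.8, with 29.7, 4.91 and 23.1 in wild type, close to the background limit. Its adjusted p of 0.0423 was 0.0994, 0.0936 and 0.135 without clones 1, 2 and 3 of the 12th restreaking, 0.0954, 0.0891 and 0.0638 without clones 1, 2 and 4 of the first, and 0.186 after quantile normalization. The log2 changes against clones 1 and 2 and against clones 3 and 4 were -1.29 and -0.43 for JEN1, -1.16 and -0.30 for ADY2, and -1.01 and -0.53 for MLS1, and none of the 3 passed against clones 3 and 4 alone. ICL1, isocitrate lyase of the same cycle, read 331, 346 and 322, against 413, 360, 376 and 358, and did not pass (adjusted p = 0.104). The 3 members that rose were FBP26, PCK1 and VID24. Without clone 2 or 3 of the 12th restreaking, or with each pair of first restreaking clones averaged, 2 members rose. VID24, part of the ubiquitin ligase that removes gluconeogenic enzymes, read 2417, 2612 and 2580, against 2087, 1958, 1560 and 1671 (1.4-fold, adjusted p = 0.00308).

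The largest fall of all genes among those with non-overlapping arrays was in nitrogen metabolism. GDH3 (YAL062W), the glutamate dehydrogenase isoform that yeast uses mainly on non-fermentable carbon, read 374, 333 and 323 at the 12th restreaking, against 1569, 1383, 733 and 744 at the first, and 160, 164 and 171 in wild type. It fell 2.96-fold (log2 change -1.56 ± 0.21, SE, adjusted p = 0.00111), with log2 changes of -2.05 against clones 1 and 2 and -1.07 against clones 3 and 4. Of 46 genes under nitrogen catabolite repression, which are off while a preferred nitrogen source lasts, 13 fell (28.3%) and 2 rose, with a median log2 change of -0.11. Without clone 3 of the 12th restreaking 7 fell.

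MEP2, GAP1, DUR3 and DIP5, permeases for nitrogen sources, fell, and each passed against both pairs of clones. MEP2, the high-affinity ammonium permease, read 798, 654 and 644 at the 12th restreaking, against 1019, 976, 1086 and 937 at the first, and 194, 185 and 174 in wild type. GAP1, the general amino acid permease, read 648, 594 and 619, against 907, 808, 1074 and 907. DUR3, the urea and polyamine transporter, read 366, 332 and 378, against 542, 495, 533 and 480. The 3 genes fell 1.43-fold, 1.47-fold and 1.41-fold (adjusted p = 0.00146, 0.00188 and 0.00174) with no overlap between groups. DIP5, the permease for glutamate and aspartate, read 967, 1046 and 990, against 1604, 1555, 1295 and 1318, and fell 1.43-fold (adjusted p = 0.00115). PTR2, the importer of di- and tripeptides, moved the other way: it read 116, 109 and 118, against 75.8, 60.7, 70.7 and 81.0, with 2817, 2787 and 2649 in wild type, and rose 1.48-fold (adjusted p = 0.00101).

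Genes of lysine synthesis were lower, by more against clones 3 and 4 than against clones 1 and 2. Homocitrate synthase, encoded by LYS20 and LYS21, commits 2-oxoglutarate and acetyl-CoA to lysine. LYS20 (YDL182W) read 834, 830 and 843 at the 12th restreaking, against 1771, 1645, 2762 and 2571 at the first, and 1493, 1554 and 1560 in wild type. It fell 2.52-fold (log2 change -1.34 ± 0.14, SE, adjusted p = 0.000132), with log2 changes of -1.02 against clones 1 and 2 and -1.65 against clones 3 and 4. All 3 clones of the 12th restreaking were below the wild-type arrays, and all 4 clones of the first were above them. LYS21 read 1699, 1637 and 1650, against 2161, 2070, 2446 and 2355, with 1859, 2025 and 2044 in wild type, and fell 1.35-fold (adjusted p = 0.000958). LYS1, the last enzyme, read 918, 824 and 788, against 1148, 1026, 1510 and 1584, and fell 1.53-fold (adjusted p = 0.00681), with log2 changes of -0.36 against clones 1 and 2 and -0.87 against clones 3 and 4.

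Of 10 measured genes of lysine synthesis and uptake 6 fell (60.0%) and none rose, with a median log2 change of -0.39. The median was -0.17 against clones 1 and 2 and -0.58 against clones 3 and 4, the clones with LYS2 signal, with 4 and 9 members lower. Without any array of the 12th restreaking or clone 3 of the first, 3 fell, and without clone 4 of the first, 4. Without the intensity trend, which lets the spread assumed by the test vary with signal, 3 fell. LYS9, saccharopine reductase, read 1248, 1220 and 1221 at the 12th restreaking, against 1518, 1355, 2919 and 2832 at the first. Its adjusted p of 0.0382 was 0.0861, 0.107 and 0.11 without clones 1, 2 and 3 of the 12th restreaking and 0.0769 and 0.0811 without clones 3 and 4 of the first. Its log2 changes were -0.22 against clones 1 and 2 and -1.21 against clones 3 and 4. LYS4, homoaconitase, read 902, 878 and 919, against 922, 939, 1396 and 1424, and did not pass over the 4 clones (adjusted p = 0.0992). LYS2 signal in the first restreaking thus moved with the size of these changes, and its part in them was not tested. LYS20 and LYS21 code for closely related enzymes, so their probe sets could share signal.

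Of 69 amino acid biosynthesis genes controlled by the activator Gcn4, 17 fell (24.6%) and none rose, with a median log2 change of -0.10. This list includes LYS1, LYS9, LYS14, LYS20 and LYS21. The number that fell was 10 without clone 2 or clone 3 of the 12th restreaking, and 11 without the intensity trend. ARG3, ornithine carbamoyltransferase of arginine synthesis, read 781, 834 and 826 at the 12th restreaking, against 1272, 1153, 1112 and 1115 at the first, and 114, 86.8 and 109 in wild type. It fell 1.42-fold (adjusted p = 0.00183). AGX1, which makes glycine from glyoxylate, read 514, 510 and 512, against 876, 799, 630 and 675, and fell 1.43-fold (adjusted p = 0.00679). BAT2, the cytosolic branched-chain aminotransferase, fell 1.26-fold (adjusted p = 0.00616).

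The largest rises were in the breakdown and export of amino acids. ARO9 (YHR137W), the aminotransferase that starts the breakdown of aromatic amino acids, read 1036, 1077 and 915 at the 12th restreaking, against 538, 367, 347 and 410 at the first, and 1004, 976 and 1113 in wild type. It rose 2.40-fold (log2 change 1.26 ± 0.12, SE, adjusted p = 0.000106), so that clones 1 and 2 of the 12th restreaking lay within the wild-type range and clone 3 below it, while all 4 clones of the first were under every 12th restreaking and wild-type array. ARO10 (YDR380W), the decarboxylase of the next step, read 197, 210 and 182, against 130, 130, 96.8 and 102, with 700, 706 and 683 in wild type, and rose 1.63-fold (adjusted p = 0.00101). AQR1 (YNL065W), a plasma membrane exporter of amino acids, read 1952, 1886 and 1706, against 976, 902, 1084 and 787, with 1020, 1160 and 1206 in wild type, and rose 1.97-fold (adjusted p = 0.000106). All 3 passed against each pair of clones, with log2 changes against clones 1 and 2 and against clones 3 and 4 of 1.15 and 1.38 for ARO9, 0.54 and 0.88 for ARO10, and 0.96 and 0.99 for AQR1. Of 15 genes of aromatic amino acid breakdown these 3 rose (20%) and 2 fell (13.3%), of which only BAT2 fell without any 1 array of the 12th restreaking.

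BNA2 (YJR078W), the enzyme that opens the ring of tryptophan to start NAD synthesis, fell. It read 456, 424 and 458 at the 12th restreaking, against 616, 605, 974 and 926 at the first, and 158, 172 and 153 in wild type (1.69-fold, adjusted p = 0.00568). The log2 changes were -0.44 against clones 1 and 2 and -1.06 against clones 3 and 4. Of 23 genes of NAD and biotin synthesis 6 fell (26.1%) and none rose. Without clones 1, 2 and 3 of the 12th restreaking 4, 3 and 2 fell, and without clone 3 of the first 4. The same test against clones 1 and 2 called 3 lower and 1 higher, and with each pair of clones averaged 2 fell.

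**Figure D3:**
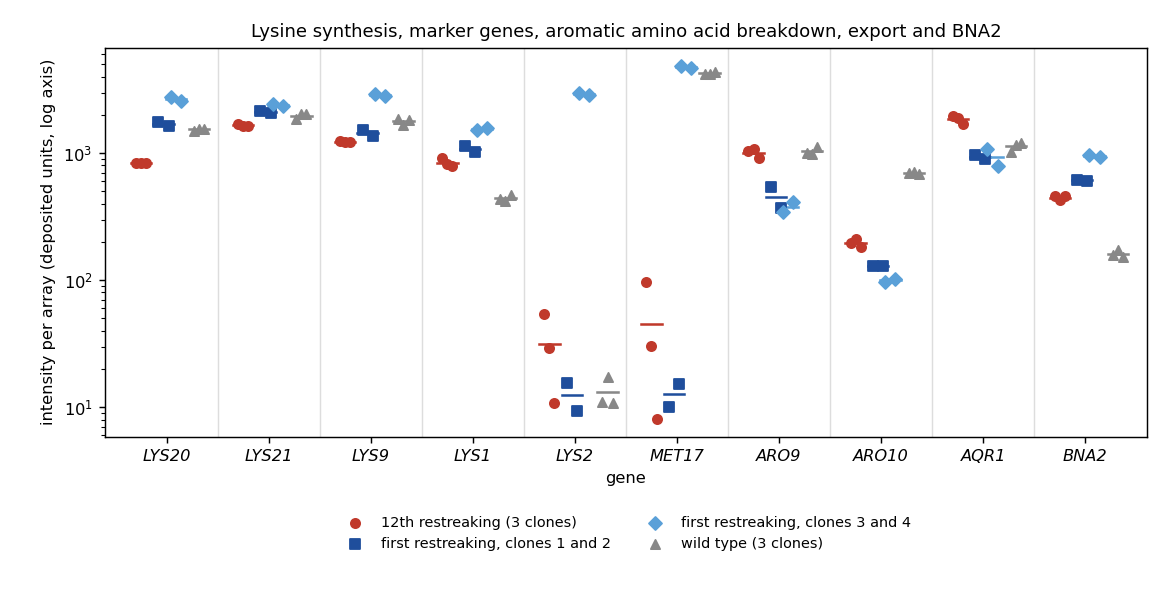
Intensity per array (log axis) of lysine synthesis genes, the marker gene MET17, ARO9, ARO10, AQR1 and BNA2. Points are single arrays of the 12th restreaking (red circles), first restreaking clones 1 and 2 (dark blue squares) and clones 3 and 4 (light blue diamonds), and wild type (grey triangles), and short lines are means of each set. ARO9 sits at 915 to 1077 at the 12th restreaking, above the 347 to 538 of the first, and LYS2 and MET17 are bright in first restreaking clones 3 and 4.

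Some genes of iron uptake were lower. Under low iron the activators Aft1 and Aft2 switch on the reductases, oxidases and siderophore carriers of this group. Of 50 genes 12 fell (24.0%) and 1 rose, with a median log2 change of -0.11. Against clones 1 and 2 alone 17 fell and against clones 3 and 4 alone 8, and 8 fell without clone 1 of the 12th restreaking. FIT2 (YOR382W), a cell wall mannoprotein that holds siderophores, read 166, 181 and 165 at the 12th restreaking, against 426, 436, 227 and 243 at the first, and 702, 729 and 776 in wild type. It fell 1.79-fold (adjusted p = 0.0106), with log2 changes of -1.26 against clones 1 and 2 and -0.43 against clones 3 and 4. FET3, the oxidase of high-affinity iron uptake, read 1690, 1840 and 1764, against 2332, 2627, 2368 and 2238, with 2770, 2851 and 2920 in wild type, and fell 1.35-fold (adjusted p = 0.000538). SIT1, a siderophore carrier, read 996, 1053 and 950, against 1429, 1460, 1421 and 1265, and fell 1.39-fold (adjusted p = 0.00101). TIS11, which destabilises mRNAs of iron-using proteins, and HMX1, haem oxygenase, fell 1.46-fold and 1.32-fold (adjusted p = 0.00291 and 0.00612). FIT2 and FET3 lay below the wild-type arrays at both points, and SIT1, with 590, 683 and 605 in wild type, above them at both.

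Several genes of calcium signalling were higher. Calcineurin, the calcium-dependent phosphatase, activates Crz1, which switches on calcium pumps and ion transport genes. PMC1 (YGL006W), the vacuolar calcium pump, read 1363, 1499 and 1615 at the 12th restreaking, against 1140, 972, 1037 and 1174 at the first, and 768, 628 and 678 in wild type. It rose 1.38-fold (adjusted p = 0.00381). CRZ1 itself read 1363, 1600 and 1568, against 971, 1137, 1149 and 1276, and rose 1.33-fold (adjusted p = 0.00584). HAL5, a kinase for potassium uptake, and GYP7, a GTPase-activating protein of vesicle traffic, rose 1.35-fold each (adjusted p = 0.00541 and 0.00570). Of 22 measured genes of a list assembled after these values were seen 8 rose (36.4%) and none fell, a description only, and 5 and 4 rose without clones 2 and 3 of the 12th restreaking. Against clones 3 and 4 alone 4 rose, as they did with each pair of clones averaged.

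Among 54 cell wall genes 9 rose (16.7%, against 6.83% of all genes) and 2 fell (3.70%, against 9.07%). In the brightest of 4 equal groups of all genes 10.2% were called higher. SLT2, the kinase of the cell wall integrity pathway, read 1679, 1714 and 1806 at the 12th restreaking, against 1247, 1261, 1439 and 1566 at the first (1.26-fold, adjusted p = 0.0220). CHS1, a chitin synthase, read 1898, 2341 and 2398, against 1581, 1574, 1867 and 1836 (1.29-fold, adjusted p = 0.0118). Both calls were lost without clone 2 or 3 of the 12th restreaking, with adjusted p of 0.0657 and 0.0927 for SLT2 and 0.0592 and 0.0692 for CHS1. SLT2 also lost it without clone 2 of the first (adjusted p = 0.0559). The number of cell wall genes that rose was 1 and 0 without clones 2 and 3 of the 12th restreaking and 6 and 3 without clones 1 and 2 of the first. Against clones 1 and 2 alone it was 16, and against clones 3 and 4 alone 2. It was 5 with array medians set equal, 5 without the intensity trend, and 2 with each pair of clones averaged.

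Small rises were found in genes of mitochondrial translation, mitochondrial import and the proteasome. Of 73 mitochondrial ribosomal protein genes 9 rose (12.3%, against 6.83% of all genes) and none fell, with a median log2 change of 0.09. Of 42 genes of mitochondrial import and folding 9 rose (21.4%) and 1 fell, and of 42 proteasome genes 7 rose (16.7%) and none fell, with medians of 0.08 each. RSM19 (YNR037C), of the small mitochondrial ribosomal subunit, read 714, 747 and 781 at the 12th restreaking, against 492, 473, 474 and 586 at the first, and 657, 575 and 616 in wild type. It rose 1.47-fold (adjusted p = 0.00101). PAM18, which drives the import motor, read 585, 548 and 626, against 436, 466, 495 and 483 (1.24-fold, adjusted p = 0.00570). RPN10, a ubiquitin receptor of the proteasome, read 1116, 1095 and 1042, against 958, 918, 917 and 974 (1.15-fold, adjusted p = 0.00977). The counts were small without clone 3 of the 12th restreaking: 3 of the ribosomal, 1 of the import and 2 of the proteasome genes rose. Each removal of another array of the 12th restreaking left 4 of the ribosomal and 4 of the proteasome genes, and for import it left 6 without clone 1 and 3 without clone 2. Without clone 1, 2, 3 or 4 of the first the import count was 3, 6, 5 and 6, and without clone 2 or 3 of the first the ribosomal count was 4 and 6. The proteasome count was 4 without clone 3 or 4 of the first. With each pair of clones averaged 4 of the ribosomal, 2 of the import and 4 of the proteasome genes rose. Without the intensity trend, or with the pairs as a random block, 5 of the import and 4 of the proteasome genes rose. The import count was 4 against clones 3 and 4 alone, and the proteasome count 4 against clones 1 and 2 alone.

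Cytosolic ribosomes showed little change in either direction. Of 127 ribosomal protein genes 4 rose (3.15%) and 5 fell (3.94%), below the share of all genes, with a median log2 change of -0.006. Over the 20 alternatives 1 to 7 rose and 0 to 7 fell. Of 131 ribosome biogenesis genes 3 rose (2.29%) and 14 fell (10.7%, against 9.07% of all genes), with a median of 0.000. SPB1, a methyltransferase of the pre-ribosome, read 1258, 1119 and 993 at the 12th restreaking, against 1591, 1590, 1681 and 1426 at the first (1.4-fold lower, adjusted p = 0.00152). NOP56, of the box C/D nucleolar particles, fell 1.18-fold (adjusted p = 0.00570). Without clone 2 or 3 of the 12th restreaking 9 and 5 biogenesis genes fell, without clone 2 or 3 of the first 8 each, and with each pair of clones averaged 8. Against clones 1 and 2 alone 8 biogenesis genes rose, against clones 3 and 4 alone none, none with the pairs averaged, and 1 without the intensity trend or with the pairs as a random block.

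**Figure D4:**
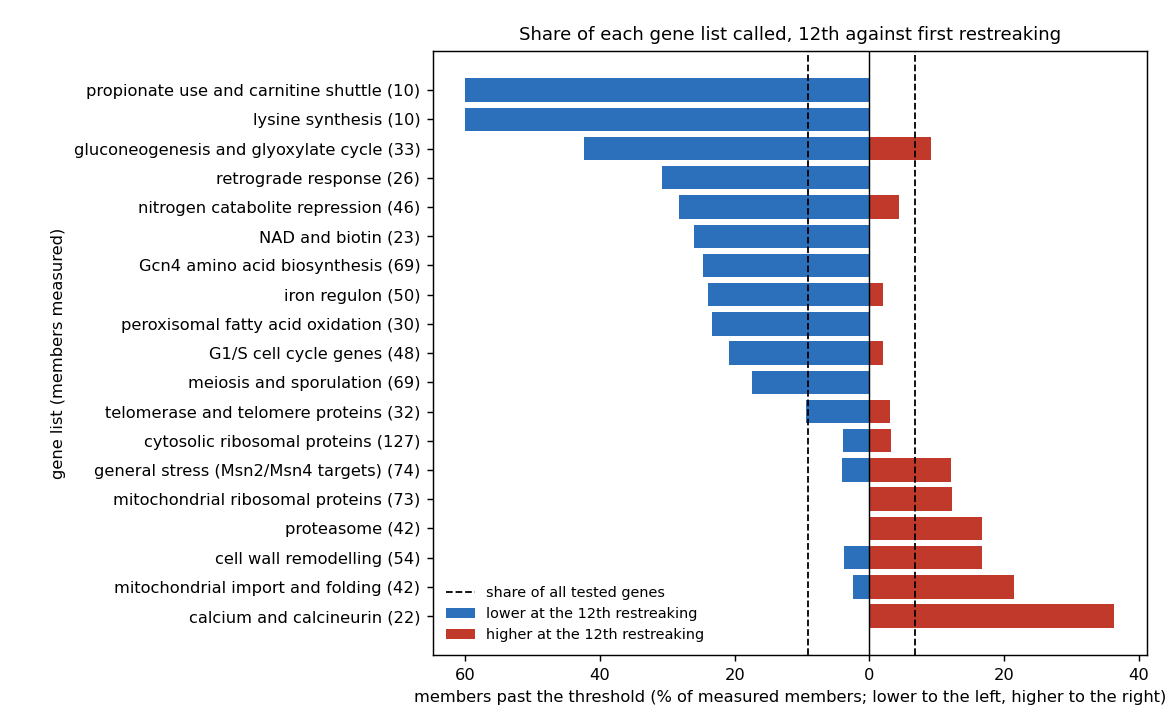
Share of the measured members of 19 gene lists called lower (blue, to the left) and higher (red, to the right) at the 12th against the first restreaking, in percent. Dashed lines mark the share of all tested genes, 9.07% lower and 6.83% higher, and the number of measured members stands in brackets; the calcium list was assembled after its values were seen. Carnitine and lysine genes reach 60.0% lower, and calcium genes 36.4% higher.

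Genes of the general stress response went in both directions. Of 74 targets of Msn2 and Msn4, the activators of this response, 9 rose (12.2%, against 6.83% of all genes) and 3 fell (4.05%, against 9.07%). The median log2 change was 0.07 over the 4 clones, -0.02 against clones 1 and 2 and 0.19 against clones 3 and 4. Against clones 3 and 4 alone 24 rose and 2 fell, and against clones 1 and 2 alone 3 rose and 7 fell. No member rose without clone 3 of the 12th restreaking and 1 without clone 2. The numbers were 5 without clone 1 of the 12th restreaking, 16 without clone 1 of the first, and 5 each without clone 3 or 4 of the first. After quantile normalization 5 rose, without the intensity trend 4, with the pairs of clones as a random block 5 and with each pair averaged 2. Of the members that fell, SIP18 (YMR175W), a desiccation protein, read 332, 349 and 318 at the 12th restreaking, against 725, 606, 551 and 532 at the first, and 45.0, 24.9 and 42.6 in wild type (1.76-fold, adjusted p = 0.00228). GND2, the minor isoform of phosphogluconate dehydrogenase, read 462, 464 and 468, against 819, 684, 612 and 625 (1.45-fold lower, adjusted p = 0.00354). FMP45 (YDL222C), a membrane protein of stationary phase cells outside this list, rose: it read 2394, 2304 and 2134, against 1688, 1555, 1191 and 1381, with 150, 147 and 138 in wild type (1.57-fold, adjusted p = 0.00115).

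Several genes of the start of the cell cycle were lower, while DNA replication genes as a group were called lower about as often as all genes. Of 48 G1/S genes 10 fell (20.8%, against 9.07% of all genes) and 1 rose, with a median log2 change of -0.11. Without clone 3 of the 12th restreaking 6 fell. Of 53 DNA replication genes 5 fell (9.43%) and 2, DPB4 and RFC5, rose (3.77%, against 6.83% of all genes). The median log2 change of the 53 was -0.03. None of them rose without clone 1 or 2 of the 12th restreaking or without clone 2 of the first. With each pair of clones averaged 1 rose and 3 fell. POL2, POL12, PRI2 and RAD27 are counted in both lists. PDS5, which holds cohesin on chromosomes, read 1059, 1003 and 1037 at the 12th restreaking, against 1476, 1330, 1491 and 1406 at the first, and 1920, 1645 and 1684 in wild type (1.37-fold, adjusted p = 0.000809). POL2, the catalytic subunit of DNA polymerase epsilon, read 1012, 924 and 919, against 1203, 1304, 1378 and 1190 (1.33-fold lower, adjusted p = 0.00271). POL12, of the primase complex, and RAD27, the flap nuclease, fell 1.27-fold and 1.28-fold (adjusted p = 0.00439 and 0.00626). The changes of these 4 genes were of like size against each pair of clones.

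Telomere genes as a group were near 0 and were called lower about as often as all genes. Of 32 genes of telomerase and telomere proteins 3 fell (9.38%, against 9.07% of all genes) and 1 rose (3.13%, against 6.83%). The median log2 change was -0.004. A pair of genes for end protection, CDC13 and YKU80, was among the 3 that fell. CDC13 (YDL220C), which binds the single-stranded end and recruits telomerase, read 146, 151 and 158 at the 12th restreaking, against 202, 227, 238 and 231 at the first, and 88.8, 125 and 120 in wild type. It fell 1.43-fold (log2 change -0.52 ± 0.10, SE, adjusted p = 0.00570). YKU80 (YMR106C), a subunit of the Ku end-binding complex, read 275, 305 and 265, against 384, 367, 365 and 346, with 415, 353 and 385 in wild type, and fell 1.28-fold (adjusted p = 0.00584). RIF1, which limits telomere length, and SIR3, of silent chromatin, had adjusted p of 0.0407 (lower) and 0.0256 (higher). The call of RIF1 was lost without clone 2 or 3 of the 12th restreaking (adjusted p = 0.15 each) or clone 2, 3 or 4 of the first (adjusted p = 0.0608, 0.0767 and 0.0886). That of SIR3 was lost without clone 2 or 3 of the 12th restreaking (adjusted p = 0.0743 and 0.112) or clone 2 or 3 of the first (adjusted p = 0.0528 and 0.0633). No gene of homologous recombination, which maintains telomeres in yeast without telomerase, was called among 31 measured, against 15.9% of all genes. The median log2 change of these 31 was -0.07, and 23 of them had a negative change.

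Within the t6A pathway 1 of 9 genes passed (11.1%, against 15.9% of all genes in either direction). TCD2, which converts t6A into its cyclic form, read 495, 467 and 430 at the 12th restreaking, against 396, 397, 427 and 383 at the first, and 625, 613 and 602 in wild type (1.15-fold higher, adjusted p = 0.0346). The call was lost without clone 1 or 2 of the 12th restreaking (adjusted p = 0.133 and 0.105) or clone 1, 2 or 4 of the first (adjusted p = 0.0570, 0.0684 and 0.0742). GON7 and PCC1, subunits of KEOPS, did not pass (adjusted p = 0.160 and 0.235). GON7 read 417, 394 and 347, against 349, 270, 343 and 366, and the groups overlapped.

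Some genes of mating and of sporulation were lower. STE12 (YHR084W), the activator of the pheromone response, read 1098, 1118 and 1044 at the 12th restreaking, against 1468, 1425, 1449 and 1488 at the first, and 1914, 1871 and 1809 in wild type. It fell 1.34-fold with little spread within either group (log2 change -0.42 ± 0.04, SE, adjusted p = 0.000106). Of 46 pheromone response and haploid genes 6 fell (13.0%, against 9.07% of all genes) and 3 rose (6.52%, against 6.83%). HO, among the 6, is counted with the G1/S genes too. Without clone 3 of the 12th restreaking 2 fell. No member rose without clone 2 or clone 3 of the 12th restreaking, and 1 rose with each pair of clones averaged. PRM2 (YIL037C), a pheromone-regulated membrane protein, read 52.1, 52.8 and 55.5, against 83.5, 73.5, 359 and 336, so that clones 3 and 4 set its 2.67-fold fall (adjusted p = 0.0366, and log2 changes of -0.44 against clones 1 and 2 and -2.39 against clones 3 and 4). The call was lost without clone 3 or 4 of the first (adjusted p = 0.0739 and 0.0786), without any array of the 12th restreaking (adjusted p = 0.0890, 0.102 and 0.10), and after quantile normalization (adjusted p = 0.0662).

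Of 69 genes of meiosis and sporulation, which are off in growing haploid cells, 12 fell (17.4%, against 9.07% of all genes) and none rose. The median log2 change was -0.17. In the dimmest of 4 equal groups of all genes 9.98% were called lower and 2.71% higher. ADY2 and SPS19, named above, are among the 12, and ADY2 was not dim. Levels of SPS4 and CRR1 were low. SPS4, a sporulation gene, read 34.2, 33.3 and 34.6 at the 12th restreaking, against 57.8, 60.1, 67.1 and 66.6 at the first, and 87.1, 77.7 and 68.2 in wild type (1.58-fold, adjusted p = 0.00135). CRR1, of the spore wall, read 53.3, 50 and 53.6, against 71.8, 79.6, 87.4 and 97.6 (1.46-fold lower, adjusted p = 0.00354). The number that fell was 7, 7 and 5 without clones 1, 2 and 3 of the 12th restreaking, 6 after quantile normalization and 7 with each pair of clones averaged.

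The phosphate regulon, which responds to phosphate shortage, was called about as often as all genes. Of 30 genes 3 rose (10%, against 6.83% of all genes) and 2 fell (6.67%, against 9.07%), with a median log2 change of 0.03. None and 1 rose without clones 1 and 2 of the 12th restreaking, and 1 with each pair of clones averaged. PHO84, the high-affinity phosphate transporter, read 89.6, 75.8 and 78.8 at the 12th restreaking, against 52.1, 53.0, 71.5 and 61.5 at the first, and 5046, 5020 and 4770 in wild type. It rose 1.29-fold (adjusted p = 0.0141, and 0.0570 without clone 1 of the 12th restreaking), and stayed far under the wild-type level. ADE1 and ADE2, of purine synthesis, rose 1.15-fold and 1.17-fold (adjusted p = 0.00354 each). ADE1 read 2501, 2482 and 2494, against 2186, 2112, 2186 and 2186, with 3567, 3562 and 3739 in wild type.

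A gain or loss of a whole chromosome would shift the median of its genes in an array. The median log2 difference of the genes of a chromosome lay between -0.054 and 0.025 for the 3 clones of the 12th restreaking, and between -0.026 and 0.022 for the 4 of the first, each first restreaking array being set against the mean of the other three. Running medians over 21 neighbours lay between -0.191 and 0.140 on the 12th restreaking arrays, with no window past 0.4. The 10 outermost tested genes at each chromosome end, 320 in all, were called lower in 64 cases (20%) and higher in 16 (5.00%). Of all genes 9.07% were called lower and 6.83% higher. The median log2 change of the chromosome end genes was -0.069, with -0.068 against clones 1 and 2 and -0.082 against clones 3 and 4. Against clones 1 and 2 alone 48 were called lower and 26 higher, and against clones 3 and 4 alone 46 and 8. After quantile normalization 55 were called lower and 20 higher, with a median of -0.039. Without clone 2 or 3 of the 12th restreaking 33 and 24 were called lower and 5 and 3 higher, and with each pair of clones averaged 32 lower and 4 higher. Genes at chromosome ends include families with near-identical members, whose probe sets cannot always tell them apart.

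**Figure D5:**
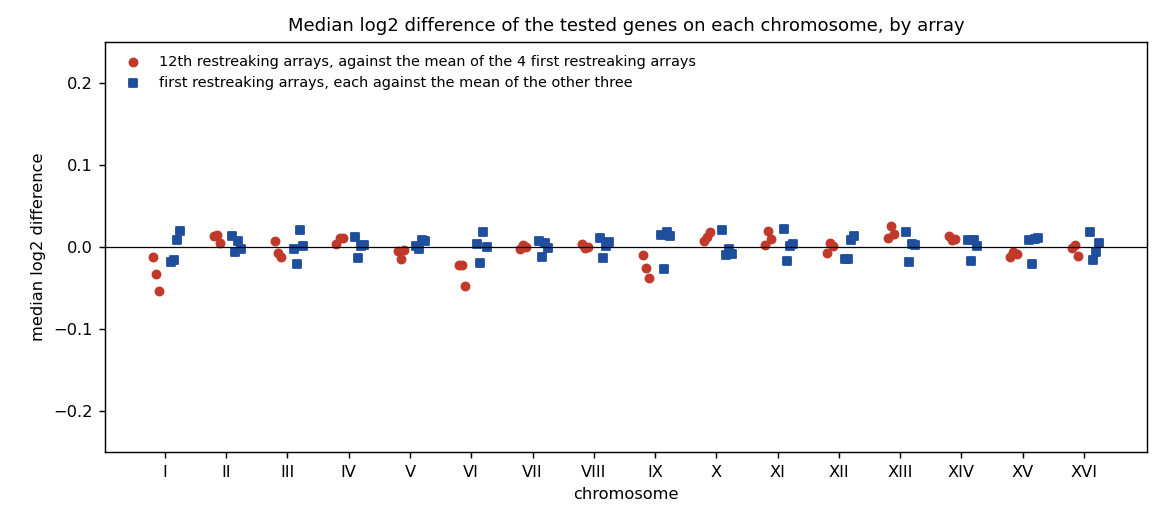
Median log2 difference of the tested genes on each of 16 chromosomes, by array. Red circles are the 3 arrays of the 12th restreaking against the mean of the 4 first restreaking arrays, and blue squares are the 4 first restreaking arrays, each against the mean of the other three. All points lie between -0.054 and 0.025.

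The clones of the 12th restreaking did not follow 1 pair of first restreaking clones at every gene. For 9 genes the means of the pairs were at least 2-fold apart, a choice made after the values were seen. The 12th restreaking was closer to clones 1 and 2 at MET17, LYS2, PRM2 and CDA1, and closer to clones 3 and 4 at COS12, YGL262W, YIG1, RCK1 and CIT3. CIT3 and PRM2 still passed as lower than that closer pair (log2 changes -0.88 and -0.44, adjusted p = 0.00244 and 0.0368). CDA1 had a mean below both pairs, but did not pass against clones 1 and 2 (adjusted p = 0.632). COS12 and its neighbour YGL262W on chromosome VII moved together. COS12, of a subtelomeric membrane protein family, read 513, 512 and 524 at the 12th restreaking, against 152, 135, 574 and 562 at the first, and YGL262W read 122, 137 and 128, against 43.3, 45.9, 168 and 149. RCK1, a protein kinase of the oxidative stress response, read 1087, 1396 and 1205, against 2571, 2748, 1116 and 1322. IMD2, PUT4, SUC2 and YOR192C-C were called in opposite directions against the pairs. IMD2, of guanine nucleotide synthesis, read 1043, 1037 and 1017, against 702, 672, 1223 and 1239, above clones 1 and 2 and below clones 3 and 4.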

How the data were processed

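RNA of 10 cultures was hybridised to 1 Affymetrix yeast array each. The authors deposited intensities on a linear scale. Which software made them is not given in the sources used. The values show a scaling of each array to a like trimmed mean of about 500.2, which assumes that total signal is alike between samples. The platform annotation pairs 7244 of 10928 probe sets with 1 gene, and 5498 of these matched S. cerevisiae. Genes with several probe sets (47) are represented by the brightest, which left 5449. The 1746 probe sets for Schizosaccharomyces pombe gave each array's background limit, their percentile 95.

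Tests used limma 3.58.1 in R 4.3.3 on log2(intensity + 16): the 3 groups' means were fitted together on the 10 arrays, eBayes used a trend on intensity, and two-sided p-values were adjusted over the 5449 genes (Benjamini-Hochberg, threshold 0.05). Folds are of these values, so dim genes appear to change less than they did. "Rose", "fell" and "called" mean past the threshold. Gene lists (65, of which 1 had no measured member, and 1 more added later) are described by counts and medians without a test. The group members and lists were chosen with earlier results of these data known.

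Genes named are SUA5, LYS2, MET17, mating type markers, the 15 largest rises and 15 largest falls with non-overlapping arrays, up to 6 called and 3 other members of a list, and up to 6 genes with the largest range among the 12th restreaking clones. The 9 genes apart between clone pairs, and 4 called in opposite directions against the pairs, were chosen with their values known. FBP26 and PCK1 are named to give all members of their list that rose. The design text calls clones independent without saying which share a spore, so p-values measure the spread between these cultures, which may be partly technical. The number of arrays limits precision. Alternatives changed the added constant, the normalization, the filter on dim genes, the choice among probe sets, the arrays in the fit, the intensity trend, the replicate block, the treatment of clone pairs and each array in turn.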

Additional observations from a re-analysis of the deposited data

Results flagged for a closer look

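ADE1 at the first restreaking has 1 array apart from the other three. At the 12th restreaking ADE1 read 2501, 2482 and 2494, against 2186, 2112, 2186 and 2186 at the first, where the gap of clone 2 to the nearest other clone made up 0.994 of the group's log2 range. The 12th restreaking arrays lie above all 4 of the first. About 1 in 20 groups is flagged in this way by chance.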

How the results depend on the processing

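No called gene named in the text changed sign under any of the 20 alternatives. Of the 4 genes called in opposite directions against the clone pairs, none of them called over all 4 clones, the sign differed from that over all 4 clones for IMD2 (log2 change -0.25), PUT4 (0.31) and YOR192C-C (0.41) against clones 3 and 4 alone and for SUC2 (-0.18) against clones 1 and 2 alone. With single arrays left out in turn, the number of genes called was 267 to 748 (866 with all arrays), that of genes higher 79 to 311 (372), that of genes lower 188 to 446 (494), and that of genes at least 2-fold apart 5 to 9 (7). Averaging each pair of first restreaking clones gave 338 genes, 103 higher and 235 lower, and taking the pairs as a random block gave 239 higher (correlation within pairs 0.255). Clones 3 and 4 alone gave 242 higher and 11 at least 2-fold apart, and clones 1 and 2 alone 16 at least 2-fold apart. Requiring a call against both pairs in the same direction, an alternative chosen after seeing the data, left 292. With the replicate number as a block 401 genes were called, 142 higher and 259 lower. The numbers are not shown to pair the samples: deviations of same-numbered clones correlated at -0.27, 0.08 and -0.19, and no 12th restreaking clone correlated best with its own number. The cause of these shifts was not tested, beyond the fewer arrays that some fits hold. The added constant, scaling, dim genes, probe set choice and intensity trend kept the counts over all genes within 1.5 times, but not all counts within gene lists, as given with those lists. Of the genes named as called, those not called without the intensity trend included CAT2, LYS14, LYS9, MLS1, PRM2 and RIF1. These were not called with each pair of clones averaged either, where JEN1, SIR3, SLT2 and TCD2 were among the others lost. MLS1, RIF1 and TCD2 were among those not called with the pairs as a random block. At most 1 of DPB4 and RFC5 was called with the pairs averaged or as a random block, and with the pairs averaged 3 DNA replication genes fell. Genes near the background limit, such as LYS2 and MET17 in most deletion clones, have imprecise folds.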

Other observations

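Genes of multidrug resistance under Pdr1 and Pdr3 were lower in 8 of 34 cases (23.5%, against 9.07% of all genes) and higher in 4 (11.8%, against 6.83%). Without clone 3 of the 12th restreaking 5 were lower and 2 higher, and without clone 2 of the 12th restreaking, or clone 2 or 3 of the first, 2 were higher, as against clones 3 and 4 alone, without the intensity trend and with the pairs of clones averaged or as a random block. PDR16, a phosphatidylinositol transfer protein, read 875, 768 and 737 at the 12th restreaking, against 1113, 1110, 1166 and 1057 at the first, and 1444, 1449 and 1531 in wild type (1.4-fold, adjusted p = 0.000538). PDR10, an ABC transporter of the plasma membrane, read 1089, 1051 and 1042, against 1351, 1393, 1372 and 1432 (1.30-fold lower, adjusted p = 0.000323). RSB1, which exports sphingoid bases, read 194, 225 and 210, against 378, 415, 281 and 296 (1.57-fold lower, adjusted p = 0.00833), with log2 changes of -0.87 against clones 1 and 2 and -0.43 against clones 3 and 4. The arrays of the groups did not overlap for any of the 3. Of 30 genes of purine synthesis 6 rose (20%) and 1 fell, among them ADE17, of its last steps, at 1565, 1697 and 1664, against 1432, 1081, 1302 and 1179, with 4762, 5240 and 4943 in wild type (1.32-fold, adjusted p = 0.00570).

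Less studied genes stood among the largest changes. YPR015C, a zinc finger protein, read 28.8, 26.9 and 28.9 at the 12th restreaking, against 60.0, 53.8, 49.0 and 77.2 at the first (1.71-fold lower, adjusted p = 0.00246). AQY1, a water channel of spores, read 65.6, 51.6 and 63.6, against 140, 120, 96.0 and 104 (1.71-fold lower, adjusted p = 0.00148). MFG1, a regulator of filamentous growth, read 418, 552 and 501, against 300, 307, 365 and 346 (1.46-fold higher, adjusted p = 0.00379). After MET17 and LYS2, IRC18 had the largest range among the 3 clones of the 12th restreaking, 1.14 on the log2 scale, with 270, 357 and 153, against 194, 277, 245 and 215 at the first.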
